A study of Mus musculus with 12 samples.

Results

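A set of 82 probes read lower in both BAF250b-/- lines than in wild-type (WT) cells at 72 h after passaging, while the same probes differed little between the lines at 18 h and little between both times in WT cells. The probes were chosen on these values. In the deposited value table, on the log2 scale and averaged over the 2 arrays of each group, both clones had to read at least 2.38-fold lower than WT at 72 h, both clones' log2 differences from WT at 18 h had to lie within 0.3 of 0, and WT at 72 h minus WT at 18 h had to do so too. These conditions held for 82 of the 25674 probes in the table, which covers part of the 42006 probes on the array. A log2 difference of -1 is a signal lower by a factor of 2.

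RNA came from mouse embryonic stem (ES) cells of 3 lines: the WT parental line, labelled #3, and 2 BAF250b-/- lines, labelled #4 and #7 and called clones 4 and 7 here. The labels describe all lines alike, with a strain background mixed from B6, 129 and CD1, a stage of 3.5 days post coitum (blastocysts), an age of 2 months and unknown sex. Each line was harvested at 18 h and at 72 h, with 2 arrays per group and 12 arrays in all. On every array the sample carried Cy3 and Cy5 marked a common reference, RNA pooled from 11 mouse cell lines. A positive log2 ratio below means more signal from the sample than from that pool. A single WT line stands for the wild type, the letter A stands in the titles of both its 18 h arrays, and every other group has one array titled A and one titled B. The spread between the arrays of a group may therefore be partly technical. In bulk RNA, fewer cells of a type and less RNA per cell cannot be told apart.

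BAF250b, encoded by Arid1b, is an AT-rich interaction domain subunit of the SWI/SNF (BAF) complex, which uses ATP to move or evict nucleosomes and so alters which stretches of DNA other factors can reach. The complex carries either BAF250a or BAF250b. In ES cells the SWI/SNF complex is known for its part in self-renewal and in the choice between keeping the undifferentiated state and leaving it, a choice that plating density and time since passaging also affect. The design asks how expression in the knockout lines differs from that of their parent early and late after passaging.

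No gene names come with the probes, so each is given by its identifier and by its 60-base sequence as the scanner files hold it. Without names, neither Arid1b itself nor ES cell markers were analysed here. All sequences are 5′ to 3′, in lower case, and capitals mark AATAAA or ATTAAA, the most common hexamers of the polyadenylation signal near the end of a messenger RNA. The 6 probes with the largest differences from WT at 72 h in the deposited table are shown first. In the scanner values Z00000936-1 ranked above Z00018109-1.
Z00004353-1: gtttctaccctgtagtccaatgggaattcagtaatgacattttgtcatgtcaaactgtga
Z00002490-1: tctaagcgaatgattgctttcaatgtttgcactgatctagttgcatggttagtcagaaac
Z00038199-1: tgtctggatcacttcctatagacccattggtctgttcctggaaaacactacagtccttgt
Z00027744-1: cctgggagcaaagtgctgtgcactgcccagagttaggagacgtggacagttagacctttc
Z00018109-1: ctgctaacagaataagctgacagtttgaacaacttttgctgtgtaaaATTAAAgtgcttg
Z00006542-1: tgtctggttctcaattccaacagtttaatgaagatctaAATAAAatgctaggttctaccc

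The next 3 probes had the highest level against the reference pool in WT cells at 72 h.
Z00000936-1: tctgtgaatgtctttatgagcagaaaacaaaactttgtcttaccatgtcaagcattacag
Z00049474-1: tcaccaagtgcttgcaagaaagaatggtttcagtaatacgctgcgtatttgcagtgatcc
Z00035142-1: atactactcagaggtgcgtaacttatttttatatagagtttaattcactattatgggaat

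These 3, together with Z00038199-1 and Z00049474-1 above, had the lowest adjusted p-values between the knockout clones.
Z00013547-1: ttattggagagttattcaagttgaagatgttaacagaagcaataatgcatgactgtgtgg
Z00062892-1: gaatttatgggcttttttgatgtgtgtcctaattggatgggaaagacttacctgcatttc
Z00010293-1: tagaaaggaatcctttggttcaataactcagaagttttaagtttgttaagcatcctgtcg

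The last 3 of the named probes lay nearest the threshold on its inner side.
Z00030646-1: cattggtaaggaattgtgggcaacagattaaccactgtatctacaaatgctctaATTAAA
Z00005779-1: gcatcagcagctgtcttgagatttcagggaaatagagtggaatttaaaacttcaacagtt
Z00015621-1: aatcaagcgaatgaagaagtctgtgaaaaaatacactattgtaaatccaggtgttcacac

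With the sequences above, these 11 complete the members that hold a polyadenylation hexamer.
Z00016086-1: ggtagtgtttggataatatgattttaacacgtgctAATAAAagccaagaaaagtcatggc
Z00056467-1: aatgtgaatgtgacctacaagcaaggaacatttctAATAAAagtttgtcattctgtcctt
Z00021936-1: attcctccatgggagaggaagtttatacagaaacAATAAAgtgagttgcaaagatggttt
Z00029917-1: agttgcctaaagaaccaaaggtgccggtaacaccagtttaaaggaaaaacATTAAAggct
Z00012597-1: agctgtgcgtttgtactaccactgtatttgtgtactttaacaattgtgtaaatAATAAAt
Z00011447-1: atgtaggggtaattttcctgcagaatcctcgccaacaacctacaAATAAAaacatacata
Z00020799-1: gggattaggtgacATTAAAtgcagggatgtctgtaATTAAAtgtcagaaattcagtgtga
Z00006623-1: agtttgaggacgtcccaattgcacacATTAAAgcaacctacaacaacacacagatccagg
Z00019061-1: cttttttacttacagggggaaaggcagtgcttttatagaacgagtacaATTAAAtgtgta
Z00010747-1: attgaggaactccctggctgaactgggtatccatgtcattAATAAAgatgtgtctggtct
Z00030428-1: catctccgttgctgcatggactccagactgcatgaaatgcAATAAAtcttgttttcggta

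AATAAA stood in 8 of the 82 sequences (9.76%, against 7.50% of the probes in the table) and ATTAAA in 6 (7.32%, against 3.45%). Either hexamer was present in 14 (17.1%, against 10.7%), and Z00020799-1 held ATTAAA in 2 places. The reverse complements of AATAAA and ATTAAA stood in 1 and 4 members (1.22% and 4.88%, against 3.62% and 2.46%). ATTTA, the core of AU-rich elements that mark unstable messenger RNAs, was present in 2 members (2.44%, against 7.85%), and its reverse complement in 11 (13.4%, against 8.54%). These motifs are rich in A and T, as are the members: their median GC content was 39.2% (range 28.3% to 55.0%), against 43.3% in the table. C made up 17.8% of the members' bases and 21.6% of the table's, while G stood at 22.5% and 21.7%. A CG pair was present in 38 members (46.3%, against 52.6%). A stop codon interrupted all 3 forward reading frames in 17 members (20.7%, against 17.9%), and 1 member (1.22%, against 5.38%) had no stop in any frame. No pair of members shared a stretch of 12 bases on either strand, and no member shared 20 bases with another probe, a RefSeq promoter window or a RefSeq miRNA. The members are therefore 82 different sequences, though separate probes may still lie on the same transcript. These counts describe the letters of the probes, and a motif match is not a measured site.

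The word lost in the working name of the set goes beyond the data. In the scanner values, background-corrected and loess-normalised, the mean of both clones at 72 h was lower than WT by a median log2 difference of -1.41, which leaves 37.6% of the WT ratio (range over members 13.9% to 57.4%). The difference was at least 2-fold for 76 members and at least 4-fold for 8. These sizes depend on the background correction: without it all 82 members were still lower, but the median was -0.96, 37 were at least 2-fold lower, and the fold of 43 moved by over 1.5 times. All 82 members were well above background by the scanner's own flag on every array. That flag separates little, since all 42006 probes carried it on both arrays of some group. A stricter limit was set at the 95th percentile of negative control signals on the same array: all 82 lay above it on each of the 8 arrays outside the knockout groups at 72 h, and between 76 and 80 did so on the 4 knockout arrays at 72 h. Of the 82, 76 passed it on all 4. Over the whole array, 40734 of the 42006 probes passed it on both arrays of some group. The members thus read lower, and most still lay above this limit on the knockout arrays.

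The dimmest of them was Z00007382-1, singled out after its values were seen. Its sample signal was 452.7 and 461.1 intensity units in WT cells at 72 h, and 415.1 and 416.0 in clone 4 and 406.4 and 408.8 in clone 7 at that time. It passed the negative control limit on none of the knockout arrays at 72 h and had the smallest difference of all members, with 57.4% of the WT ratio left. Its log2 difference was -0.80 with background correction and -0.17 without it. The part of the offset of 50, added in that correction, in the size of this difference was not tested. The brightest, Z00044287-1, also chosen after its values were seen, read 61018.6 and 59627.8 units in WT cells at 72 h, 23317.5 and 21713.1 in clone 4 and 23881.0 and 25359.3 in clone 7, and was saturated on the first WT array at 18 h only.

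Across the arrays, the median log2 ratio of the members lay between 0.71 and 0.84 on the 8 arrays of WT cells and of the clones at 18 h, and between -0.68 and -0.58 on the 4 knockout arrays at 72 h. Every member read lower on all 4 of these arrays than on any other array that measured it. The gap between the groups ranged from 0.60 to 2.73, with a median of 1.23. Over the probes with a value on each array, 14.5% had such a separation. The rule used this contrast, so nothing is read from the members' count.

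With background correction, the largest difference of the set was that of Z00004353-1. This probe lay in array regions of shifted reference signal on 3 arrays, 2 of them knockout arrays at 72 h. Its log2 ratio was -0.46 and -0.43 on the WT arrays at 72 h, -3.34 and -3.40 in clone 4 and -3.19 and -3.21 in clone 7. At 18 h it read -0.35 and -0.40 in WT cells, -0.31 and -0.44 in clone 4 and -0.29 and -0.34 in clone 7. The 4 knockout arrays at 72 h thus stood far below the other 8, which lay within a narrow band, and the mean difference of -2.84 is a 7.18-fold lower ratio (2.74-fold without background correction). In raw signal it went from 1170.7 and 1150.5 units in WT cells at 72 h to between 443.3 and 488.5 in the clones, close to the 402.6 to 416.4 units that are the medians of the negative controls.

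Z00002490-1 was above the reference pool in every group but the knockout groups at 72 h. It read 2.29 and 2.31 in WT cells at 72 h, -0.21 and -0.30 in clone 4 and -0.19 and -0.16 in clone 7, with 2.53 and 2.54 in WT cells, 2.41 and 2.43 in clone 4 and 2.22 and 2.35 in clone 7 at 18 h. Its mean ratio was 5.71-fold lower in the clones at 72 h (2.49-fold without background correction). Z00027744-1 had the same course from a lower start, at 1.57 and 1.74 in WT cells at 72 h, -0.82 and -0.77 in clone 4 and -0.75 and -0.82 in clone 7, a 5.44-fold lower ratio (3.15-fold without the correction). At 18 h its 6 values lay between 1.53 and 1.77. Both probes moved from above the pool to below it.

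Z00038199-1 read 0.60 and 0.61 in WT cells at 72 h, -1.77 and -1.74 in clone 4 and -2.05 and -2.27 in clone 7, so that clone 7 lay below clone 4 with no overlap. Its WT value at 18 h, 0.46, came from 1 array because the other spot carried an outlier flag. At 18 h the clones read 0.61 and 0.66 (clone 4) and 0.65 and 0.64 (clone 7), next to each other. Its mean ratio was 5.92-fold lower in the clones at 72 h (3.39-fold without background correction).

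The other 2 of the 6 probes shown first hold a polyadenylation hexamer. Z00018109-1, with ATTAAA from base 48, read 0.57 on both WT arrays at 72 h, -1.5 and -1.59 in clone 4 and -1.41 and -1.40 in clone 7, and between 0.40 and 0.53 at 18 h. Z00006542-1, with AATAAA from base 39, read 1.20 and 1.23 in WT cells at 72 h, -0.88 and -1.09 in clone 4 and -0.94 and -1.03 in clone 7, and between 1.20 and 1.33 at 18 h. Their mean ratios were 4.14-fold and 4.59-fold lower, and that of Z00018109-1 was 2.25-fold lower without background correction. The 14 members with a hexamer did not stand out by size, with a median difference of -1.34, against -1.43 for the 68 without.

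The probe with the highest level, Z00000936-1, stayed above the reference pool throughout. It read 3.07 and 3.39 in WT cells at 72 h, 1.07 and 0.94 in clone 4 and 1.17 on both arrays of clone 7, a 4.41-fold lower ratio. At 18 h its 6 values were within 3.43 to 3.48, while its WT arrays at 72 h, 0.32 apart, were the widest pair of members in that group. Z00049474-1 read 2.75 and 2.77 in WT cells at 72 h, 1.23 and 1.13 in clone 4 and 1.45 and 1.40 in clone 7. Z00035142-1, the sequence lowest in GC of all members, read 2.70 and 2.67 in WT cells, 1.42 and 1.28 in clone 4 and 1.31 and 1.36 in clone 7. These 3 were the members still at least 2-fold above the pool in both clones at 72 h.

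Relative to the pool of 11 cell lines, the members were mostly high in WT ES cells. Their median log2 ratio in WT at 72 h was 0.72 (range -1.30 to 3.23), 65 of 82 were above the pool, and 29 (35.4%) were at least 2-fold above it, against 10.5% of the table. The rule used the WT values at 72 h and asked for a lower reading from them. The share above the pool is therefore not independent of that choice. The level against the pool also carries any dye effect on a probe, since no dyes were swapped. In clone 4 at 72 h, 15 members were above the pool, and in clone 7, 16; 32 were at least 2-fold below it in each clone, against 1 in WT. By level in WT at 72 h, the median difference was -1.46 for the 29 members at least 2-fold above the pool. It was -1.43 for the 36 between that and the pool and -1.35 for the 17 below the pool. The rule cut the sizes at its threshold, which narrows their range in each of these sets. Across the 82 probes the level and the difference had a Pearson r of -0.19 and a Spearman rho of -0.18, as a description over probes that share the same arrays. The WT values at 72 h enter both the level and the difference, so no relation between them is read from these values.

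At 18 h, where the rule kept the differences small, the log2 ratios leaned slightly below 0, while the sample channel alone leaned above it (medians 0.06 in clone 4, with 27 of 82 below 0, and 0.18 in clone 7, with 15 below 0). The median over members was -0.06 for clone 4 minus WT and -0.06 for clone 7 minus WT, with 57 of 82 members below 0 in each, and WT at 72 h minus WT at 18 h had a median of -0.10, with 66 below 0. The same medians over the table lay within 0.01 of 0, where 13025 and 13293 of 25673 and 25672 probes were below 0 at 18 h. These comparisons share the WT arrays at 18 h. The largest size among the members in any of the 3 was 0.30. Within each clone, from 18 h to 72 h, the members' median was -1.47 in clone 4 (range -3.00 to -0.65) and -1.44 in clone 7 (range -2.88 to -0.69). The rule fixes this direction, since in the table it allows no change with time above -0.65 in either clone.

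The threshold sat in a continuous range of values. In the deposited table, 204 probes (0.795%) were past the threshold in both clones at 72 h. Of these, 111 were also within 0.3 of 0 in both clones at 18 h, 64 were lower than that in both clones at 18 h and 9 higher. WT cells differed by more than 0.3 between times for 29 of the 111: 21 were lower at 72 h and 8 higher. The opposite rule, at least 2.38-fold higher in both clones at 72 h with the same limits otherwise, held for 34 probes. Just inside the threshold, Z00030646-1 had table differences of -1.26 in both clones, Z00005779-1 had -1.34 in clone 4 and -1.26 in clone 7, and Z00015621-1 had -1.51 and -1.26. Just outside it were Z00022878-1, at -1.29 in clone 4 and -1.249 in clone 7, Z00020416-1, at -1.26 and -1.246, and Z00036388-1, at -1.26 and -1.241. In the scanner values Z00030646-1 read -0.38 on both WT arrays at 72 h, -1.61 and -1.65 in clone 4 and -1.66 and -1.59 in clone 7. Its 4 knockout values sat together below those of WT, with a gap of 1.13 to the lowest of the other arrays, against 2.73 for Z00004353-1.

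The rule did not set the clones against each other, but it used the same arrays and asked for low values in both clones at 72 h. The counts below are conditional on that choice and are not independent of it. Limma was fitted to all probes, with Benjamini-Hochberg adjustment over 42004 probes and a threshold of 0.05. At 72 h, 9 of the 82 members (11.0%) differed between the clones, against 4.86% of all probes tested, and 27 (32.9%) had an unadjusted p under 0.05, against 21.0% of all probes. Clone 7 was lower for 3 of the 9 and higher for 6. The differences were small beside the distance of both clones from WT: the median size over members was 0.09 and the largest 0.59, 66 members differed by under 0.2, and the 95% interval lay within 0.5 of 0 for 77 (median half-width 0.13). The count ranged from 2 to 10 when arrays were left out in turn. It was 2 without the second clone 4 array at 72 h, 4 without the first, and 6 without either WT array at 18 h. Leaving out the second array of clone 7 at 72 h gave 5. Without the first clone 7 array at 72 h it was 10, of which 4 were among the 9.

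Z00013547-1 had the lowest adjusted p. It read 0.98 and 0.91 in clone 4 at 72 h and 0.40 and 0.34 in clone 7, against 2.15 and 2.26 in WT cells. Clone 7 was lower than clone 4 on both arrays, by a log2 difference of -0.57 (SE 0.07, limma adjusted p = 0.0039), on top of the shared difference from WT. At 18 h it read 2.20 and 2.36 in clone 4, 2.05 on both arrays of clone 7 and 2.13 and 2.00 in WT cells. Z00062892-1 read -1.39 and -1.33 in clone 4 and -1.66 and -1.68 in clone 7 at 72 h, with WT at -0.03 and -0.08 (clone 7 minus clone 4 -0.31, SE 0.04, limma adjusted p = 0.0053). Z00038199-1, given above, had a difference of -0.40 (SE 0.07, limma adjusted p = 0.018). The 3 probes lower in clone 7 had ratios that did not overlap between the clones at 72 h. They were picked by this test on the same arrays, so the separation adds no support. In the sample channel alone their differences, in the order given, were -0.19, -0.19 and -0.11 (limma adjusted p = 0.39, 0.23 and 0.54).

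In the opposite direction, Z00010293-1 read -1.67 and -1.68 in clone 4 at 72 h and -1.40 and -1.41 in clone 7, with WT at 0.05 and 0.07 (difference 0.27, SE 0.04, limma adjusted p = 0.013). Z00049474-1 was higher in clone 7 by 0.24 (SE 0.05, limma adjusted p = 0.027). In the sample channel alone the differences of Z00010293-1 and Z00049474-1 were 0.67 and 0.42 (limma adjusted p = 0.017 and 0.059). The other 4, Z00062568-1, Z00014965-1, Z00027293-1 and Z00034373-1, were higher in clone 7 by 0.17 to 0.31, with limma adjusted p from 0.028 to 0.040. All of these stayed well below WT in both clones. Feature extraction was run on separate days for clone 7 and for the other lines, so day and clone 7 cannot be told apart in these differences.

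At 18 h the rule kept both clones within 0.3 of WT, which bounds the difference between them at 0.6 in the table, so the values are given as a description. The median size of the difference was 0.05 and the largest 0.23. Limma called 0 members (0.136% of all probes), the lowest adjusted p was 0.28, and 6 (7.32%) had an unadjusted p under 0.05, against 10.1% of all probes. For the change from 18 h to 72 h, limma again called 0 members (0.00714% of all probes), with 13 (15.9%) at an unadjusted p under 0.05, against 9.08% of all probes, and a lowest adjusted p of 0.16. The same bound at 18 h enters this comparison. The count was no longer 0 without the first clone 7 array at 72 h, which leaves a single array in that group. The share of all probes called in that fit is not given, so nothing is read from it about the members. The 9 members called at 72 h are therefore not shown to have changed differently with time, and a p above the threshold does not show that the clones were alike. Across the members the change with time in clone 4 and that in clone 7 had a Pearson r of 0.92 and a Spearman rho of 0.85, a description over probes fixed in part by the rule.

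The arrays of a group gave close values for the members, with a median SD between 0.03 and 0.05 in each group. Clone 7 at 72 h stood apart: its arrays had an r of 0.951 over all probes, against 0.990 to 0.993 in the other groups, and an SD over 0.2 for 5 members, against at most 2 in another group. The widest was Z00016086-1, at -0.67 and -2.06 in clone 7 against -0.80 and -0.75 in clone 4, followed by Z00014704-1, at -0.32 and -1.31 in clone 7 against -0.44 and -0.48 in clone 4. Their lower ratios on the second clone 7 array did not come with a lower sample signal. On the first and second array it was 433.6 and 500.5 units for Z00016086-1, and 428.6 and 434.1 for Z00014704-1. Z00016086-1 also lay in an array region of shifted reference signal on 1 knockout array at 72 h. With clone 7 represented by its first array alone, the difference of clone 7 from WT went from -1.91 to -1.21 for Z00016086-1 and from -1.47 to -0.98 for Z00014704-1, close to those of clone 4, -1.32 and -1.12. Z00041517-1, Z00019292-1 and Z00017944-1 were the other 3, with lower values on the second clone 7 array. These 5 were chosen by their SD, after their values were seen. On the arrays as a whole, 13 members lay in array regions of shifted reference signal on at least 1 knockout array at 72 h; their median difference was -1.35, against -1.43 for the 60 members in no such region on any array.

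Both channels were also read apart. The sample channel alone put clone 4 minus WT at 72 h at a median of -1.36 and clone 7 minus WT at -1.08, with all 82 members below 0 in each clone. The reference channel, which holds the same RNA pool on each array, had a median of 0.02 over the members for clone 4 minus WT at 72 h but 0.25 for clone 7 minus WT, and 0.13 and 0.27 at 18 h. Over all probes these medians were within 0.02 of 0. For clone 7, part of the difference in the ratio thus came with a higher reference signal on the members, at both times. The part of the extraction day in the reference signal was not tested, since the day is that of clone 7 alone.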

How the data were processed

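Expression was measured on 12 Agilent 60-base oligonucleotide arrays. Per the file headers, spot intensity values came from Agilent Feature Extraction 7.5.1, also named in the submitters' processing notes. The authors' deposited value table of 25674 probes is on a log10 scale (column medians 2.99 to 3.00) and was multiplied by 3.3219 to give log2. It followed the scanner log ratio of sample over reference with each probe's mean log reference signal added, with r from 0.992 to 0.999 per array. That added level is the same on every array, so this r says little about the ratio alone. The choice of its probes is not described in the labels. The log10 ratio deposited in the scanner files served as an alternative.

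The deposited mean signal and background intensities were corrected with normexp (offset 50) and loess-normalised (limma 3.58.1, R 4.3.3). Control spots had no weight, spots with an outlier flag were left out and spots of 1 probe were averaged, which left 42006 probes. Limma (lmFit, eBayes) fitted 6 group means over 12 arrays (6 residual and 2.98 prior degrees of freedom) with Benjamini-Hochberg adjustment. The arrays' median sample intensities ranged from 513.1 to 653.0, and negative control medians between 402.6 and 416.4. The number of arrays limits precision.

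The members, lists and rules were chosen with earlier results of these data known. Probes given in full were the 6 with the lowest mean difference at 72 h in the deposited table, the 3 highest against the reference in WT at 72 h, the 3 nearest inside the threshold and the 5 with the lowest adjusted p between the clones. Identifiers matched no entry of the RefSeq gene table, so the targeted gene, the gene lists and the cell type markers were not analysed here. Alternatives covered background correction, normalisation, channels, the deposited values, filters, thresholds, a block and each array left out in turn.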

Additional observations from a re-analysis of the deposited data

Results flagged for a closer look

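The number of members that differed between clone 7 and clone 4 at 72 h, 9 of 82, is listed for a closer look because the clones' effects against the same WT arrays differed by a test of the difference itself (limma, adjusted p under 0.05). The 9 were Z00013547-1, Z00062892-1 and Z00038199-1, lower in clone 7, and Z00010293-1, Z00049474-1, Z00062568-1, Z00014965-1, Z00027293-1 and Z00034373-1, higher in clone 7. Over all probes tested, 4.86% were called, against 11.0% of the members. The rule used these same arrays at 72 h, so the count is conditional on that choice, and it varied when arrays were left out. The arrays of clone 7 were extracted on a day of their own, and the part of that day in the count was not tested.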

How the results depend on the processing

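The rule held for 188 probes with a threshold of -1, for 39 with -1.5, for 40 with a window of 0.2 and for 115 with 0.4, against 82 as used. It held for between 73 and 98 when arrays were left out in turn. Applied to the loess-normalised scanner values it held for 66 probes, of which 62 were members (93.9% of the 66 and 75.6% of the 82).

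The members that differed between the clones at 72 h numbered 2 at an adjusted p under 0.01, 0 with a limit of 1.5-fold added, 3 without background correction, 4 with median centring, 18 in the sample channel alone and 14 in the deposited table, against 9 (limma). Among the 9 were 2 of the 3 called without background correction and 3 of the 4 with median centring. So were 4 of the 18 in the sample channel and 9 of the 14 in the deposited table. The shares of all probes called under these settings, or with an array left out, are not given here. These counts are therefore not read as results about the members. The 0 with the fold limit is by construction a stricter call, and 27 members had an unadjusted p under 0.05 without it. Leaving out each array gave 2 to 10 at 72 h, 0 to 0 at 18 h and 0 to 5 for the change with time. Over these alternatives the adjusted p of Z00013547-1 ranged from 0.0020 to 0.39, of Z00062892-1 from 0.0043 to 0.23, of Z00010293-1 from 0.011 to 0.13, of Z00038199-1 from 0.00042 to 0.54 and of Z00049474-1 from 0.018 to 0.25, with no change of direction.

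The median of clone 4 minus WT at 72 h was -0.93 without background correction and -1.59 in the deposited table and in the deposited log ratio. That of clone 7 minus WT at 72 h was -0.93 without background correction, -1.46 with median centring, -1.08 in the sample channel alone and -1.55 in both deposited sets. At 18 h the sample channel alone turned the sign, to 0.057 for clone 4 and 0.18 for clone 7, and clone 7 stood at -0.16 with median centring. WT at 72 h minus 18 h was -0.034 in the sample channel alone. The level in WT at 72 h was 0.42 without background correction, 0.62 with median centring and 0.78 in the deposited log ratio. With each array left out, the medians at 72 h lay between -1.44 and -1.39 in clone 4 and between -1.44 and -1.39 in clone 7. Over all settings, 155 of these values stayed within the tolerance (1.5 times for a count, 1 SD between arrays for a median) and 28 moved beyond it. For the 15 probes given in full, 203 of the differences at 72 h stayed within 1 SD, 67 moved further and 0 changed sign. Leaving out an array at 18 h, or adding the replicate number as a block, cannot move a difference at 72 h. A median over members likewise stays the same when the array left out is not part of it. Such settings are counted in the 203 and the 155, so these tallies do not measure stability. Of the clone differences, 17 were no longer past the threshold and 73 were. The cause was not tested.

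Replicate numbers did not pair the arrays: deviations correlated between -0.16 and 0.36 over 15 pairs of groups, and 2 exceeded 0.1. With the replicate number as a block, limma called 9 members at 72 h (8 of them among the 9), 0 at 18 h and 0 for the change with time. Dim signal limits the folds: 43 members moved by over 1.5 times without background correction, 6 of them among the 15 given in full, and 6 members missed the negative control limit on at least 1 knockout array at 72 h.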
